A study of Mus musculus with 6 samples.

Results

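Retinoic acid is the active form of vitamin A, and 9 genes that supply, carry, sense or remove it were followed in the embryonic whisker pad. They were chosen by name, with earlier results of these data known. Every probe set that the platform annotation gives to 1 of them was taken, 10 probe sets of 8 genes among 22626 probe sets and 12393 genes in all. Cyp26b1 has no probe set listed under its symbol and was not analysed here. The samples were whole whisker pads, the part of the snout in which the vibrissae form, dissected from mouse embryos at E12.5, mid-gestation. One group of 3 was wild-type and the other group of 3 was homozygous for a Trps1 mutation, and each array held RNA of 1 embryo according to the design text. The sources used here give no allele or strain and do not say in which cells the mutation acts. Each pad contains epithelium, mesenchyme, vessels and nerves together.

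Cells take up retinol, which travels in blood bound to the carrier Rbp4, in part through the membrane receptor Stra6. Retinol is oxidised to retinaldehyde and then, by the retinaldehyde dehydrogenases Aldh1a2 and Aldh1a3 among others, to retinoic acid. Inside the cell Crabp1 and Crabp2 bind retinoic acid, nuclear receptors such as Rarb respond to it at paired sites in DNA, and the cytochromes Cyp26a1 and Cyp26b1 break it down. In the embryonic face retinoic acid is known for its part in the growth and patterning of the nasal and maxillary prominences, and too much or too little of it deforms them.

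The sequences of 2 members carry the textbook link between the pathway's output and its own genes, and they are shown because the levels of these genes are often read as a gauge of retinoic acid. The 300-base RefSeq promoter windows (250 bases before to 50 after an annotated transcript start, build GRCm38.p6) were searched on both strands for 2 copies of the hexamer NGNTCA in the same orientation. Its first N stood for A or G and its other N for G or T. The copies were 1, 2 or 5 bases apart, and matches could overlap each other. Of the 7 members with a window in the table, 2 held a match, Rarb and Cyp26a1, and both had 5 bases between the copies. Matches of that spacing were in 32 of all 32851 windows, 0.0974%, and matches of any of the 3 spacings in 193, 0.588%. These shares count windows, of which the 7 members have 11, and not genes. The hexamers searched were those of the textbook retinoic acid response element, so the matches are a description and no test. Capitals mark the match, and each sequence is written 5′ to 3′ on the strand of its gene.
Rarb promoter window, chr14:16575427-16575726, minus strand: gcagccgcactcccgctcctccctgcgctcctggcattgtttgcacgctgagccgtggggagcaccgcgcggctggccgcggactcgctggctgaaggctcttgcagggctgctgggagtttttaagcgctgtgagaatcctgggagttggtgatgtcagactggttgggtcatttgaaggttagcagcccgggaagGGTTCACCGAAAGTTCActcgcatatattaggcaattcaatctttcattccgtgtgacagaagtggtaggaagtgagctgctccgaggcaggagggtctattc
Cyp26a1 promoter window, chr19:37697558-37697857, plus strand: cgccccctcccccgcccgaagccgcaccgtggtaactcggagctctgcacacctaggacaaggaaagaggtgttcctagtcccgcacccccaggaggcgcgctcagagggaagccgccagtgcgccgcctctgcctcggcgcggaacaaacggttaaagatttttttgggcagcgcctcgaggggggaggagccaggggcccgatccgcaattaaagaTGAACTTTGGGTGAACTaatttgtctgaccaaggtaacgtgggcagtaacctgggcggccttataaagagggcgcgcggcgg
The Rarb match lies at bases -53 to -37 from the start on which its window is built and runs with the gene, as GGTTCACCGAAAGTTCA. The Cyp26a1 match lies at bases -32 to -16 and runs against the gene, so its other strand reads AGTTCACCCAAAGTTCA. A match describes the letters of the window and is not a measurement of binding. In the whisker pad data neither gene differed between the groups beyond the spread between embryos, as given below.

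All arrays had the same trimmed mean signal of 250.1, and the unspiked bacterial control probe sets reached 33.8, which serves below as the upper edge of background. A first principal component with 28.7% of the variance set both arrays numbered 3 apart from the other 4. Wild-type replicate 3 also read 461.5 for Xist, the RNA of the inactive X chromosome, against 44 to 93.7 on the other arrays, and 11.9 for the Y-linked gene Eif2s3y against 207.3 to 272.3. That array thus carried the marks of a female embryo and the others those of males, while the labels give no sex. The probe set of Trps1 read 748.1 to 1061.4 in wild-type and 1297.3 to 1506.7 in mutant pads, and without the place of the mutation this does not check the labels. A difference is the mutant mean less the wild-type mean of log2(signal + 16), a scale which shrinks the differences of dim genes. Values after ± are SDs with n = 3 per group. Tests are two-sided by limma, and adjusted p-values (Benjamini-Hochberg) cover all probe sets. An exact permutation test of 3 arrays against 3 cannot give a p below 0.1.

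No retinoic acid gene passed the adjusted threshold of 0.05, and neither did any other probe set on the array (0 of 22626, a background of 0.0%). By an unadjusted p under 0.05, 3 of the 10 probe sets differed, against 5.27% of all probe sets. Of these 2 were lower and 1 higher, against 2.37% and 2.9% of all probe sets. They were the probe set of Stra6, lower in the mutant, and 2 of the 3 probe sets of Aldh1a3, which pointed in opposite directions. All 3 were dim and lay among the 7542 probe sets lowest in mean signal, so that 0 of the remaining 7 reached that p when those were left out, and 0 of 10 when signals under 32 were set to 32. Without both arrays numbered 3, a setting added after the data were seen, 1 of 10 reached it, the higher Aldh1a3 probe set. The groups did not overlap at 4 of the 10 probe sets, 3 of them lower and 1 higher in the mutant, against 10.2% of all probe sets (4.76% lower and 5.41% higher). Of the 10 differences 8 were below 0, with a median of -0.27, while over all probe sets 49.5% were below 0 and the median was 0.0029. Because the members were chosen with earlier results known, their shares are not those of a blind choice. In whole pads, fewer cells of a type and less RNA per cell cannot be told apart.

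**Figure D1:**
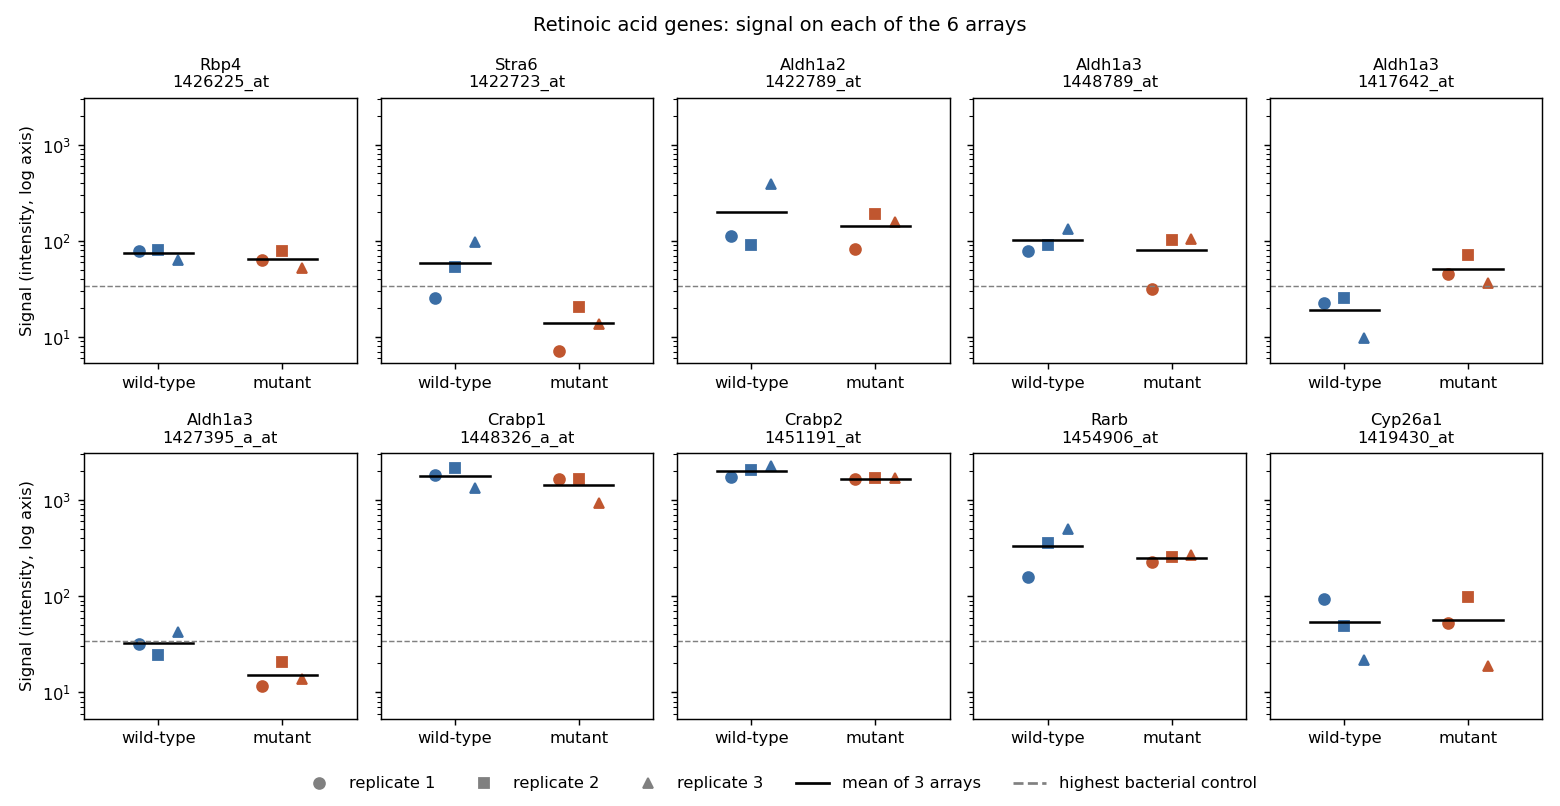
Signal (intensity, log axis) of the 10 probe sets of the retinoic acid genes on the 6 arrays, with 1 symbol per replicate number, a bar at the mean of 3 arrays and a dashed line at the highest bacterial control, 33.8. Crabp1 and Crabp2 read far above the line on every array, whereas the 3 mutant Stra6 values and the 3 wild-type values of Aldh1a3 probe set 1417642_at lie below it.

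**Figure D2:**
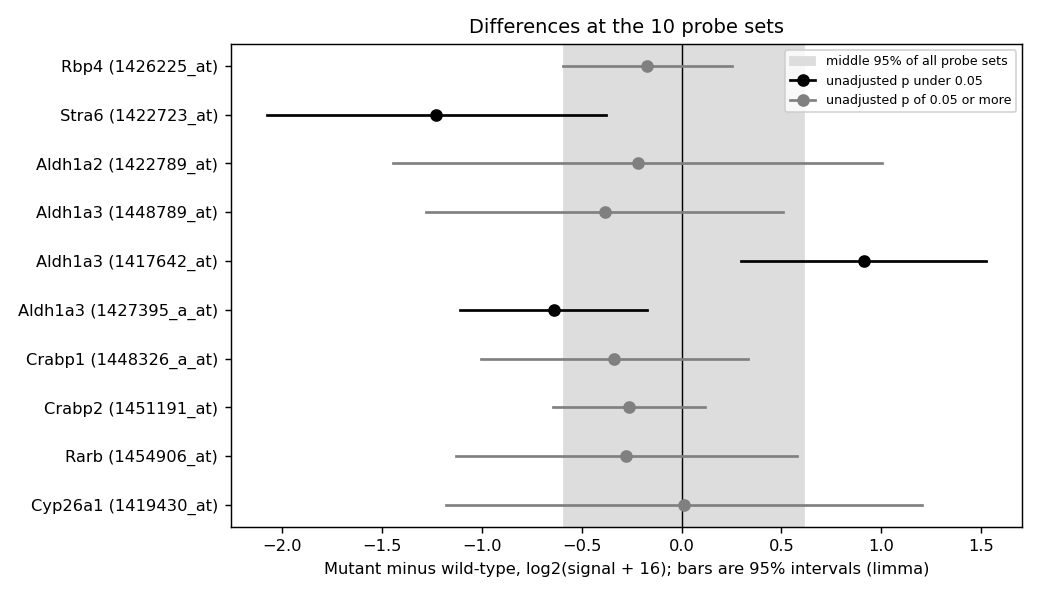
Mutant minus wild-type difference of each probe set on the log2(signal + 16) scale with its 95% interval from limma; the grey band holds the middle 95% of all 22626 probe sets, from -0.59 to 0.61. Intervals of Stra6 and of 2 Aldh1a3 probe sets exclude 0 before adjustment, and those 2 Aldh1a3 intervals lie on opposite sides of 0.

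Supply of retinol to the pad was represented by its blood carrier and the receptor of that carrier. Rbp4 (chr19:38116620-38125321), the blood carrier made mainly in liver, read 77.9, 80.1 and 63.5 in wild-type and 62.9, 77.5 and 52.2 in mutant pads. The groups overlapped, all 6 values were above the bacterial controls, and the difference was -0.17 (SE 0.18, 95% interval -0.59 to 0.25). It was -0.06 without mutant replicate 3 and -0.29 without mutant replicate 2. Stra6 (chr9:58063793-58154004), first found as a gene stimulated by retinoic acid, read 25.5, 52.9 and 96.3 in wild-type and 7.1, 20.6 and 13.5 in mutant pads. Every mutant value was below every wild-type value, but all 3 mutant values and wild-type replicate 1 lay under the highest bacterial control. The difference was -1.23 (SE 0.36, 95% interval -2.08 to -0.38, unadjusted p = 0.0108, adjusted p = 0.82). With mutant signals set to the highest bacterial control, the wild-type mean of Stra6 was 1.38-fold higher on the log2(signal + 16) scale. This ratio kept wild-type replicate 1 at its own value and carries no sampling error. With signals under 32 set to 32 in both groups, the log2 difference was -0.77 (unadjusted p = 0.143). Wild-type replicate 3 held the highest Stra6 value, and without that array the difference was -0.87 (unadjusted p = 0.0259). Without both arrays numbered 3 it was -0.88 (unadjusted p = 0.0594).

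Markers of liver and yolk sac endoderm, tissues that make retinol carriers, read low. Of 10 such markers 9 were measured, and 0 of them exceeded the highest bacterial control on all 6 arrays. Their summed signal was 136.7 to 179.7 in wild-type and 164 to 244 in mutant pads. By brightest probe set 4 of the 9 were above and 5 below 0, with a median of -0.01. Ttr, the blood partner of Rbp4, together with Apom and Fgb of that list, did not exceed the control on any array. Alb, the serum albumin gene, read 40.8, 33.1 and 8.7 in wild-type and 42.8, 56 and 53.9 in mutant pads, with all mutant values above all wild-type values (difference 0.70, unadjusted p = 0.0579, adjusted p = 0.966). The brightest probe set of Afp, a fetal serum protein gene, read 3.3, 5.2 and 7.5 in wild-type pads and 16.3, 39.7 and 18.5 in the mutants. Only 1 of its values exceeded the control. Its groups did not overlap either (difference 0.90, unadjusted p = 0.00612, adjusted p = 0.687), and at its other 4 probe sets the groups overlapped below the control. The part of these markers in the values of Rbp4 and Stra6 was not tested.

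The 2 dehydrogenases that make retinoic acid varied widely between embryos of the same group. Aldh1a2 (chr9:71215789-71296243), the main synthetic enzyme of the early embryo, read 110.6, 90.1 and 391.7 in wild-type and 82.5, 190 and 154.7 in mutant pads. The value of wild-type replicate 3 was the highest of the 6 and stood apart from both other wild-type values, and the mutant values overlapped the wild-type range. The difference of -0.22 (SE 0.52, 95% interval -1.45 to 1.01) was smaller than the spread. It turned to 0.38 (SE 0.33) without wild-type replicate 3, to 0.09 without mutant replicate 1 and to 0.30 without both arrays numbered 3, so no direction can be given for Aldh1a2.

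Aldh1a3 (chr7:66390892-66427477), a synthetic enzyme known from the eye and nasal region, had 3 probe sets that did not point the same way. The brightest, 1448789_at, read 78.9, 90.8 and 131.7 in wild-type and 31.3, 101.7 and 104.6 in mutant pads. These groups overlapped, only mutant replicate 1 was under the bacterial controls, and the difference was -0.39 (SE 0.38), or 0.06 without that array. Probe set 1417642_at, annotated to the same sequence accession as the brightest, read 22.5, 25.3 and 9.7 in wild-type and 45.3, 70.1 and 35.8 in mutant pads. Here all mutant values were above all wild-type values, and the wild-type values were all under the highest bacterial control. The difference was 0.91 (SE 0.26, unadjusted p = 0.00935, adjusted p = 0.787). With the wild-type signals set to that control the mutant mean was 1.30-fold higher, a ratio without sampling error. With signals under 32 set to 32 in both groups, the log2 difference was 0.60 (unadjusted p = 0.0829). Probe set 1427395_a_at read 32, 24.5 and 42.3 in wild-type and 11.5, 20.7 and 13.7 in mutant pads. The groups again did not overlap, in the other direction, and 5 of the 6 values were under the bacterial controls. Its difference was -0.64 (SE 0.20, unadjusted p = 0.014, adjusted p = 0.845), and no fold is given because the wild-type mean of 32.9 is itself under that control. The mean over the 3 probe sets differed by -0.04, so these arrays give no single direction for Aldh1a3.

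Markers of nasal and eye tissue, in which Aldh1a3 is known to be active, were partly above the bacterial controls. Of 10 nasal and olfactory epithelium markers 6 were measured. Their sum was 238.6 to 278.6 in wild-type and 249.2 to 300.2 in mutant pads, and 1 of them, Dlx5, was above the bacterial controls on all arrays. Of 10 eye markers all were measured, and their sum was 397.1 to 460.3 and 351.3 to 506.6. The 3 above the controls on all arrays were the pigment genes Tyr, Dct and Pmel. The marker lists describe what a whole pad could hold, and they do not show that eye or nasal tissue was present. The lens genes Cryaa, Cryba1 and Mip did not exceed the control on any array, while the crystallin genes Cryab and Crybb3 exceeded it on 4 arrays each, with overlapping groups. By brightest probe set 2 of the 6 nasal markers were above and 4 below 0. Of the 3 nasal markers with a group mean above the control 2 were above 0. Of the 10 eye markers 6 were above and 4 below 0. The medians of the 2 whole lists were -0.12 and 0.10. In the nasal list Six6 and in the eye list Tyrp1 had an unadjusted p under 0.05, both lower in the mutant (-0.61 and -0.61). Over all genes 2.34% were lower at that p. The groups of both genes did not overlap at the brightest probe set. Six6 did not exceed the control on any array and Tyrp1 did on 1, and the other probe sets of Tyrp1 differed by -0.04 and 0.02. By contrast all 10 skin epithelium markers and all 8 measured facial mesenchyme markers were above it on all 6 arrays, tissues that a whisker pad consists of. The sum of the skin epithelium markers was 3243.7 to 5123.5 in wild-type and 3007.3 to 4512.3 in mutant pads. That of the facial mesenchyme markers was 16917.8 to 17192 and 17357.9 to 18670, and the part of these lists in any difference was not tested.

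The 2 cellular carriers read far above background on every array. Crabp1 (chr9:54764748-54773110), a carrier of neural crest-derived mesenchyme, read 1803.2, 2171.5 and 1347.8 in wild-type and 1666.2, 1676.1 and 931.2 in mutant pads. Its lowest values were those of both arrays numbered 3, 1 in each group, and the groups overlapped. The difference was -0.34 (SE 0.29, 95% interval -1.01 to 0.33), and it was -0.06 without mutant replicate 3. That array had the lowest Rbp4, Crabp1 and Cyp26a1 values, and the ratio of its 3′ to its 5′ actin control, a sign of RNA quality, was 1.35 against 1.07 to 1.19 on the other arrays. The part of RNA quality in these values was not tested. Crabp2 (chr3:87948693-87953372), which hands retinoic acid to nuclear receptors, read 1741.3, 2050.7 and 2289.5 in wild-type and 1644.4, 1702.2 and 1679.4 in mutant pads. All mutant values were below all wild-type values, though mutant replicate 2 was close to wild-type replicate 1, and the mutant embryos differed little among themselves (SD 29.1 against 275). The difference was -0.26 (SE 0.16, 95% interval -0.64 to 0.12, unadjusted p = 0.145, adjusted p = 0.976). It kept its sign without each array in turn, from -0.37 without wild-type replicate 1 to -0.17 without wild-type replicate 3.

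Rarb (chr14:16430839-17082331), the nuclear receptor whose promoter window holds the match shown above, read 160.2, 353.6 and 495.5 in wild-type and 226.9, 257 and 266.4 in mutant pads. The mutant values were close together and lay inside the wide wild-type range, with a wild-type SD of 168 and a mutant SD of 20.6. The difference of -0.28 (SE 0.37, 95% interval -1.13 to 0.58) depended on single wild-type arrays. It was 0.06 without wild-type replicate 3 and -0.71 (unadjusted p = 0.0155) without wild-type replicate 1.

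Cyp26a1 (chr19:37697738-37701536), the breakdown enzyme whose promoter window holds the other match, read 92.8, 48.9 and 21.5 in wild-type and 52.3, 98.9 and 18.7 in mutant pads. The lowest value of each group was that of replicate 3, and both of these were under the bacterial controls. Both groups spanned nearly the same range, and the difference was 0.01 (SE 0.51, 95% interval -1.18 to 1.21). It lay on either side of 0 when single arrays were left out, from -0.40 without mutant replicate 2 to 0.46 without mutant replicate 3, and was -0.37 without wild-type replicate 3. The interval is wide enough to hold a doubling or a halving on the log2 scale, so the array does not show that Cyp26a1 is alike in both groups.

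**Figure D3:**
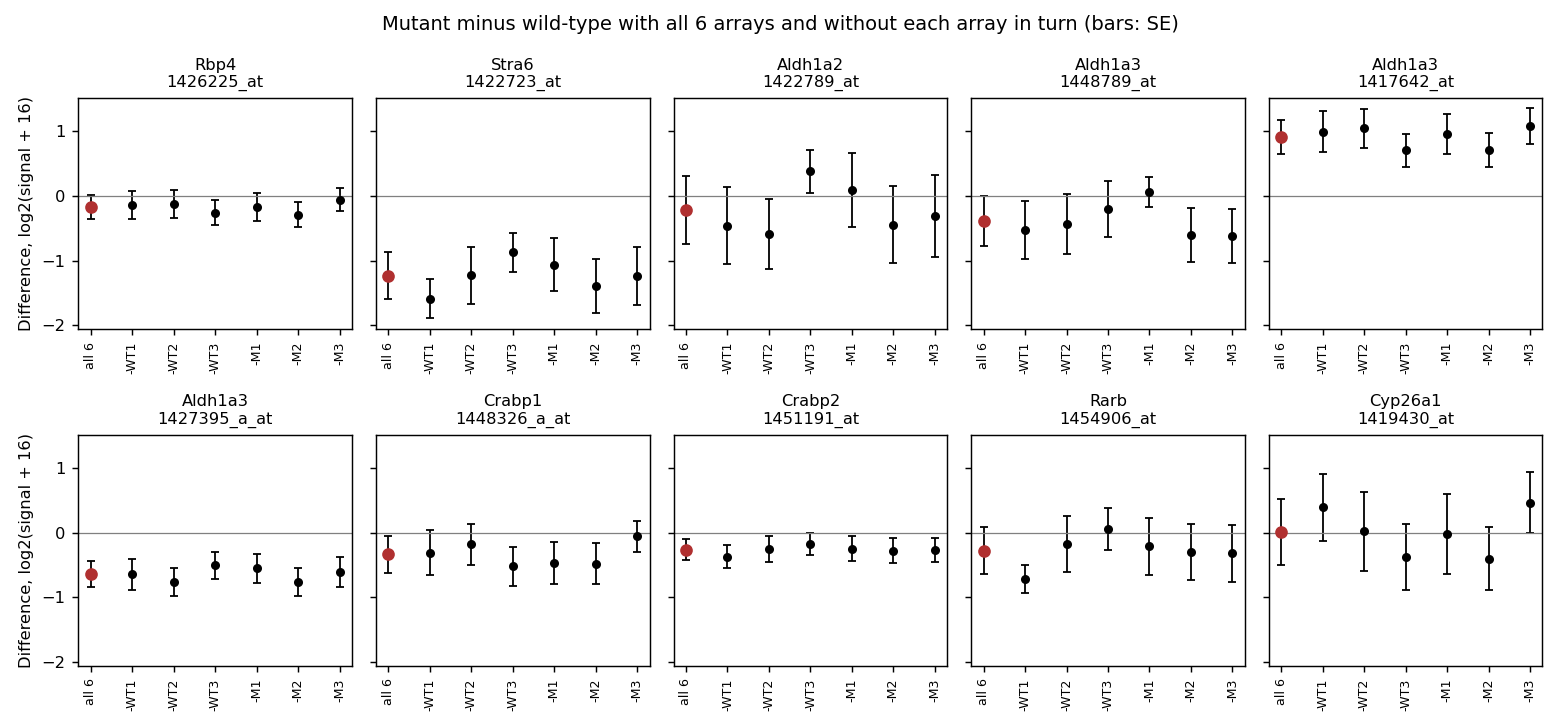
Mutant minus wild-type difference, log2(signal + 16), of each probe set with all 6 arrays (first point, red) and without each array in turn (WT and M with the replicate number left out), with bars at 1 SE. Stra6 stays between -1.59 and -0.87, whereas Aldh1a2, Rarb, Cyp26a1 and Aldh1a3 probe set 1448789_at change sign.

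The spread between embryos of 1 genotype differed from gene to gene. Wild-type replicate 3 gave the highest value at 6 of the 10 probe sets (Stra6, Aldh1a2, Rarb, Crabp2 and 2 of Aldh1a3), an array that is highest at 21.3% of all probe sets. Mutant replicate 1 gave the lowest value at 5 of the 10, against 16.6% of all probe sets. The ratio of the highest to the lowest array within a group was 1.31 in wild-type and 1.04 in mutant pads for Crabp2, and 1.26 and 1.48 for Rbp4. For Rarb it was 3.09 in wild-type and 1.17 in mutant pads, for Aldh1a2 4.35 and 2.30, and for Cyp26a1 4.32 and 5.29. These ratios compare arrays within a gene and say nothing of levels between genes.

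Genes with the most similar profiles over the 6 arrays were listed for the 3 members that varied most among those above the bacterial controls on every array, out of 8207 other genes also above them. Likeness was the root mean square difference of centred log2 values, a description over 6 arrays that share their scaling, and smaller means closer. The genes were picked for this likeness, so peaks and orders that they share with a member are no separate result. How close a match 6 arrays give by chance was not tested. For Aldh1a2 the closest gene was Barx1 (0.217), a homeobox gene of jaw mesenchyme, which read 121.2, 87.1 and 322.8 in wild-type and 119.7, 205 and 160.8 in mutant pads. Like Aldh1a2, from its choice by likeness, Barx1 was highest in wild-type replicate 3 and had the same order among the mutants. Next were the matrix metalloproteinase Mmp24 (0.369) and Hand1 (0.376), a transcription factor of the distal jaw mesenchyme, both also highest in wild-type replicate 3. For Crabp1 the closest were Id1 (0.0735), an inhibitor of helix-loop-helix factors, Eif4e (0.0938), the cap-binding translation factor, and Dym (0.102). All 3 were lowest in mutant replicate 3 and next lowest in wild-type replicate 3. For Rarb they were H2-DMb2 (0.145), an antigen-loading gene, Klrg1 (0.207), a lymphocyte receptor, and Sil1 (0.21), an exchange factor of the endoplasmic reticulum.

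**Figure D4:**
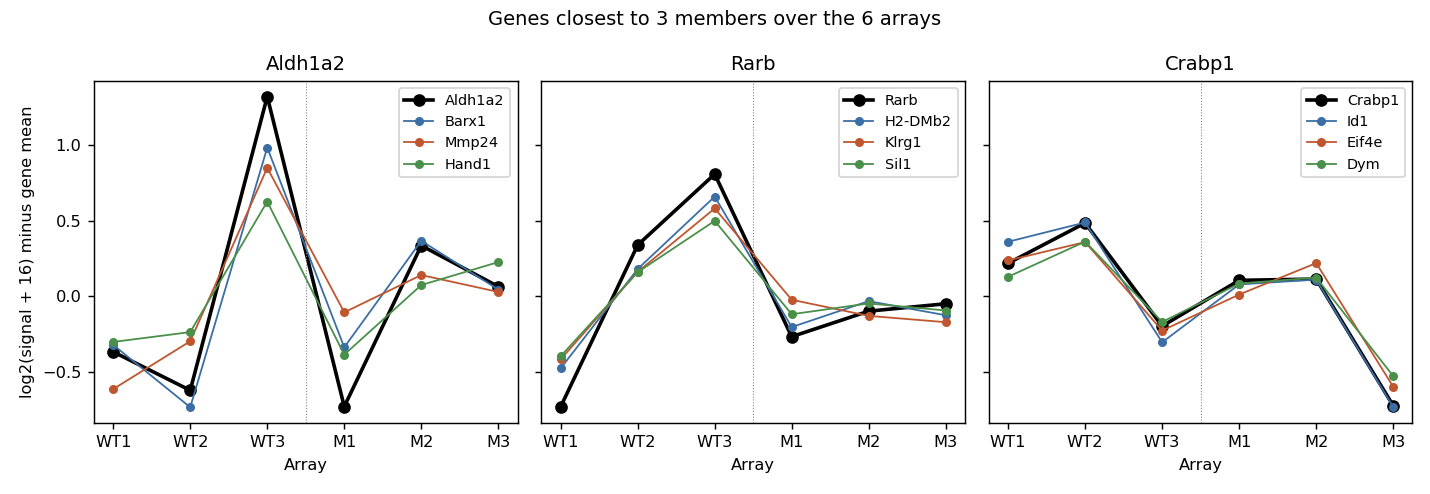
Centred log2(signal + 16) of Aldh1a2, Rarb and Crabp1 (black) and of the 3 genes closest to each (colours) on the 6 arrays, wild-type replicates 1 to 3 left and mutant replicates 1 to 3 right of the dotted line. Aldh1a2 and Barx1 share the peak in wild-type replicate 3, and Crabp1 and its neighbours are lowest in mutant replicate 3. The genes in colour were chosen for this likeness.

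The rest of the retinoid pathway gave no single gene past the adjusted threshold either. Of 70 other retinoid genes in 4 lists 59 were measured, each by its brightest probe set, and an unadjusted p under 0.05 was reached by 3 that were higher and 2 that were lower. The background over all 12393 genes was 2.7% higher and 2.34% lower. The median difference of the 59 genes was 0.08, with 38 above 0, against 0.00017 over all genes. The members had a median of -0.27 over their 8 brightest probe sets, with 1 above 0.

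Among 26 measured genes of vitamin A transport, storage and retinaldehyde formation, 13 were above and 13 below 0, with a median of -0.01. Lrat, which stores retinol as esters, read 14.1, 9.5 and 8.7 in wild-type and 18.6, 29.4 and 24.5 in mutant pads, giving 0.58 as the difference (unadjusted p = 0.0114, adjusted p = 0.828). The groups did not overlap, but every value was under the highest bacterial control. Bco2, a carotenoid-cleaving enzyme, read 27.7, 43.8 and 44.3 in wild-type and 7.6, 25 and 17.1 in mutant pads, giving -0.77 as the difference (unadjusted p = 0.016, adjusted p = 0.884). Only 2 of its values were above that control. Rdh10, which makes retinaldehyde for the embryo's retinoic acid, was well detected at 307 ± 26.6 and 294 ± 53.3 and differed by -0.07 (95% interval -0.49 to 0.35). Dhrs3, which turns retinaldehyde back to retinol, read 136 ± 51.7 and 88.4 ± 47.8 with overlapping groups. Rdh10 and Dhrs3 were named after their values were seen.

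Of the other synthesis and breakdown enzymes 4 were measured. By brightest probe set 4 were above 0 and 0 had an unadjusted p under 0.05, with differences of 0.06 to 0.29. The other probe set of Aldh8a1 differed by -0.37, and those of Cyp1b1 by 0.38 and -0.36. Aldh1a1, the remaining retinaldehyde dehydrogenase of the family and also named after its values were seen, read 5.33 ± 2.69 and 6.17 ± 2.15, under the bacterial controls on every array. Among 12 nuclear receptors, cofactors and carriers 9 were above and 3 below 0, with a median of 0.11, and 1 had an unadjusted p under 0.05. That was Nrip1, a corepressor that binds liganded receptors, at 104.2, 120.4 and 140.2 in wild-type and 216, 152.2 and 191.6 in mutant pads. The groups did not overlap, and the difference was 0.55 (SE 0.19, unadjusted p = 0.0206, adjusted p = 0.92). Its other probe set differed by 0.36 (unadjusted p = 0.0573) and there too the groups did not overlap. The receptors Rara and Rarg, named after their values were seen, read 75 ± 18.7 and 61.6 ± 21.1, and 398 ± 50.8 and 465 ± 155, with overlapping groups in both.

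Of 17 measured genes known to respond to retinoic acid 0 passed the adjusted threshold. At an unadjusted p under 0.05 1 was higher and 1 lower, and in all 12 were above and 5 below 0, with a median of 0.11. The homeobox gene Meis2 read 600.2, 670.6 and 853.5 in wild-type and 1029.8, 963.1 and 1001.7 in mutant pads. They differed by 0.50 (SE 0.18, unadjusted p = 0.0238, adjusted p = 0.92). All mutant values of Meis2 were above all wild-type values. The zinc finger gene Zfp503 read 978.6, 604.8 and 739.8 in wild-type and 427.7, 502.2 and 600.5 in mutant pads. They differed by -0.57 (SE 0.22, unadjusted p = 0.0362, adjusted p = 0.925). Its groups did not overlap at that probe set, but the other probe set differed by -0.15 (SE 0.26) with overlapping groups. Markers of meninges and periocular mesenchyme, tissue that is rich in retinoic acid enzymes and targets, were below 0 at 4 of 4 measured genes (Foxc1, Foxc2, Foxd1 and Zic1). Their summed signal was 545.5 to 597.2 in wild-type and 246 to 420 in mutant pads, and its part in the values of Stra6 and the other members was not tested. Foxd1 was the 1 gene of these 4 with an unadjusted p under 0.05, at -0.91 (adjusted p = 0.929). It read 432.7, 178.2 and 145.1 in wild-type and 113.5, 119 and 104.8 in mutant pads, so it made up most of the sum in wild-type replicate 1. The groups overlapped at Foxc1, Foxc2 and Zic1, and Foxc2 exceeded the bacterial controls on 4 arrays and Zic1 on 2. Over all probe sets 49.5% were below 0.

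**Figure D5:**
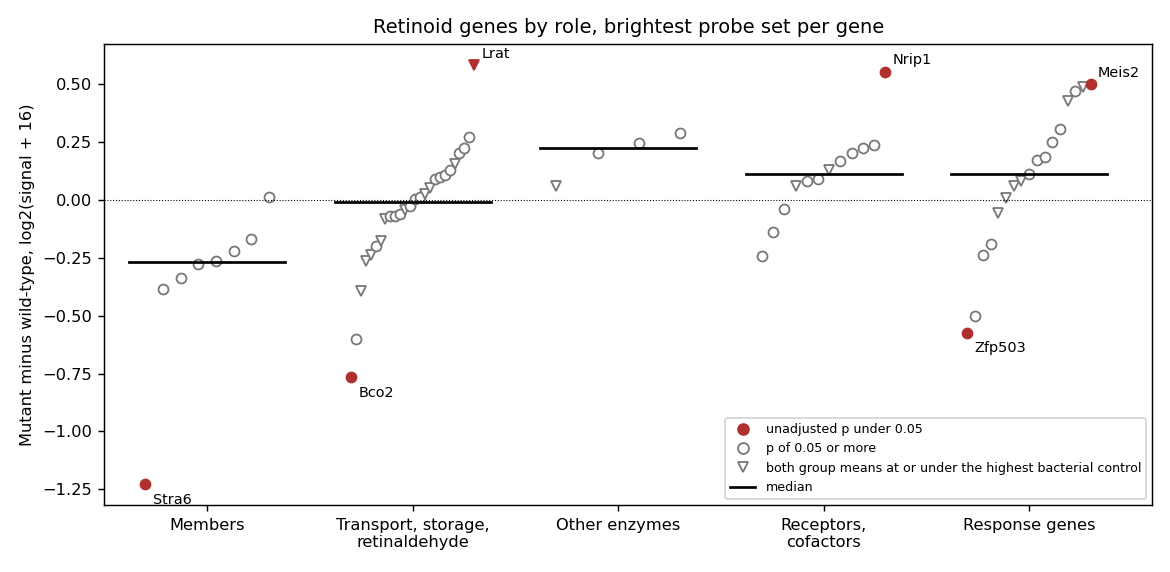
Mutant minus wild-type difference, log2(signal + 16), of the brightest probe set of each member and of each measured gene of the 4 lists, with the median of each list as a bar; filled red symbols have an unadjusted p under 0.05 and triangles have both group means at or under the highest bacterial control. The median of the members is -0.27 and the medians of the lists are -0.01, 0.22, 0.11 and 0.11.

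The submitters listed 65 probe sets as past an unadjusted p of 0.05 and a fold of 1.5. The authors' deposited table holds 0 of the 10 probe sets described here and 0 of those of the 4 lists. By the same threshold 3 of the 10 passed with limma's p on the values used here, and 2 with the methods' unpaired test, both of them Aldh1a3 probe sets. Over all probe sets the same threshold was passed by 723 with limma and 359 with the methods' test.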

How the data were processed

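RNA of 6 whisker pads was measured on 1-colour Affymetrix MOE430A arrays, with biotin-labelled cRNA made by the maker's protocol, per the labels. Deposited were 1 linear intensity value for each of 22690 probe sets on each array. The sources used here do not give the software that summarised probes. The authors' deposited table of 65 probe sets gives a ratio (fold) and log2 group values, made with GeneSpring GX 10.0 per the design text, and only its probe set names were used.

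The 64 control probe sets were left out, 16 was added and log2 taken. limma 3.58.1 (lmFit, eBayes) in R 4.3.3 compared mutant with wild-type over 22626 probe sets, with no covariate. The fit was tested on simulated data. Groups and replicate numbers came from the titles. No pair of arrays shared more than 0.358% equal signals. The number of arrays limits the precision.

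Genes were named by the platform annotation and renamed through gene numbers to RefSeq (GRCm38.p6), which also gave coordinates. Of the probe sets tested, 20380 had 1 gene, 691 several and 1555 none. A gene was represented by its brightest probe set. Members, lists and markers were chosen with earlier results of these data known.

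Named were all members, up to 5 genes per list by smallest unadjusted p under 0.05, the 3 closest profiles of 3 members, and Trps1. Other names are marked as chosen later, or illustrate a marker list. Alternatives were other normalizations, offsets, priors, weights and tests, a filter on dim probe sets, a replicate block and leaving out arrays.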

Additional observations from a re-analysis of the deposited data

How the results depend on the processing

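Over 157 recomputed differences of the 10 probe sets, 146 kept their sign and 11 did not, and 0 passed the adjusted threshold (lowest adjusted p = 0.526). Part of the 146 was fixed in advance. The trended and robust prior, the replicate block, the methods' test and the filter on dim probe sets change only the test. They return the same difference as the main fit and could not turn its sign. Differences of Stra6, Crabp1, Crabp2, Rbp4 and the 2 dimmer Aldh1a3 probe sets kept their sign in every setting that held them. Those that changed sign did so mainly when single arrays were left out: Aldh1a2 ranged from -0.59 to 0.38, the brightest Aldh1a3 probe set from -0.62 to 0.059, Rarb from -0.71 to 0.057 and Cyp26a1 from -0.40 to 0.46. Aldh1a2 was also 0.054 with array weights, and Cyp26a1 was -0.0019 with an offset of 1. Without both arrays numbered 3, Aldh1a2 was 0.30 and Rarb 0.013. The count of the 10 probe sets with an unadjusted p under 0.05, 3 as reported, was 0 with a floor of 32, 0 without the 7542 dimmest, 1 without both arrays numbered 3, and 3 to 4 when 1 array was left out. It was 2 with the trended and robust prior and 2 with the methods' test. Over all probe sets the count past the adjusted threshold, 0 as reported against 1193 at an unadjusted p under 0.05, was 2 without the 7542 dimmest, 1 with a trended and robust prior, and 0 to 1 when 1 array was left out. The number past the study's threshold, 723 with limma, was 359 with the methods' test, 311 with a floor of 32, 318 without the 7542 dimmest, 1121 without mutant replicate 3 and 1250 without both arrays numbered 3. The cause of these shifts was not tested beyond the fewer arrays or probe sets that each setting holds.

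Same-numbered arrays deviated from their group means with correlations of 0.0383, 0.0687 and 0.136, not all above 0.1, so the numbers were not taken as pairs. The highest was that of both arrays numbered 3. Either of them gave -0.0958 to -0.0594 with the arrays numbered 1 or 2 of the other group. Deviations sum to 0 within a group, so these values must be below 0 on balance and add nothing to the 0.136. A structure shared by both arrays numbered 3 was not tested. With the replicate number as a block, Stra6 differed by -1.23 (unadjusted p = 0.00489) and 3 of the 10 probe sets had an unadjusted p under 0.05, the same count as without it. Probe sets near the bacterial controls limit the values of Stra6, Aldh1a3, Cyp26a1, Lrat and Bco2.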
